A study of Homo sapiens with 2 samples.

Results

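ATP-binding cassette (ABC) genes were compared between SOX2 knockdown and mock knockdown in SW620, an established human cell line derived from a colorectal cancer. The genes were chosen by symbol: every probe set annotated to exactly 1 symbol of the form ABC, a letter from A to G and a number was taken, and each gene was represented by the probe set with the highest mean log2 value over both arrays. Pseudogenes were left out. This gave 41 of the 19775 genes that had a probe set to themselves, in 7 subfamilies: 11 ABCA, 8 ABCB, 10 ABCC, 3 ABCD, 1 ABCE, 3 ABCF and 5 ABCG genes. Of coding ABC genes outside this rule, TAP1, TAP2 and CFTR are described further on and others were not analysed here.

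RNA was hybridised to 2 Affymetrix 3′ arrays of 1 colour. With 1 array in each group there was no replicate and no test, and precision is limited by the number of arrays. The mock culture carried a lentiviral hairpin without a target and the other a lentiviral hairpin against SOX2, a transcription factor of stem and progenitor cells; no further treatment, clone or time point is named. Both cultures were grown in RPMI-1640 medium. The design asks which genes SOX2 regulates in colorectal cancer cells; it also mentions gastrulation, which no sample label does. Source names read knockdown while titles end in KO, and the sample descriptions speak of mouse liver, which no other label does.

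ABC proteins bind and split ATP to move a substrate across a membrane, most of them out of the cytosol. ABCA proteins mainly move lipids, ABCB and ABCC proteins include the pumps that give tumour cells resistance to drugs, ABCD proteins serve peroxisomes and lysosomes, and ABCG proteins export sterols and drugs. ABCE and ABCF proteins have no membrane part and work at the ribosome. In the gut, several of these pumps sit at the apical or basolateral face of the epithelium and limit or allow the passage of drugs, bile acids and sterols.

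SOX2, the target of the hairpin, went from an intensity of 2077 in the mock culture to 20.9 in the knockdown culture at its probe set of highest mean, which is at least 30.3-fold lower against the detection floor described next. The differences of its probe sets at that floor ran from -6.64 to -1.47 as deposited. The median of all values, an intensity of 68.5, served as a floor for detection. All differences below are log2 intensity on the SOX2 knockdown array minus the mock array; for a gene whose dimmer value fell short of the floor, the difference against the floor is given as a bound. Of 54613 probe sets, 27415 reached the floor in the mock culture and 27198 in the knockdown culture. Of 9 markers of colorectal epithelium, 8 reached it in the mock culture and 9 after knockdown, with a summed intensity of 50521 and 69227. Among these LGALS4 alone crossed the floor, from 39.1 to 6010, and VIL1 alone was lower, from 2063 to 867. Markers of other cell types gave summed intensities of 122 and 237 for leukocytes (0 and 1 of 3 at the floor, PTPRC under it on both), 521 and 430 for fibroblasts (3 and 2 of 5), 256 and 224 for endothelium (2 and 2 of 3) and 631 and 4674 for hepatocytes (3 and 3 of 5, ALB under it on both). In the last list SERPINA1 alone went from 313 to 4301. The part of these markers in the results below was not tested.

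Of the 41 ABC genes, 25 reached the floor on at least 1 array. Among these, 3 were higher by 2-fold or more after SOX2 knockdown: ABCG2, ABCC3 and ABCG1. That is 12.0% of the 25, beside 8.44% of all 13609 genes at the floor. ABCB1 was the 1 gene at least 2-fold lower as deposited, 4% beside a background of 7.29%. With values under the floor raised to it, the counts were 3 higher and 0 lower, beside 7.85% and 6.64% of all genes. At a limit of 1.5-fold, 5 ABC genes were higher and 4 lower, or 20.0% and 16.0%, beside 15.0% and 14.8% of all genes. The median difference was 0.13 for the ABC genes and -0.0063 for all genes, and the median size of the difference, its sign set aside, was 0.30 for both. As a family, the ABC genes thus differed about as much as other genes did, and the large differences belonged to single members. The other 16 ABC genes reached the floor on neither array, with intensities between 7.84 and 62.7 and differences between -0.32 and 0.27 at their probe sets of highest mean. In bulk RNA, fewer cells with a transcript and less of it per cell cannot be told apart.

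**Figure D1:**
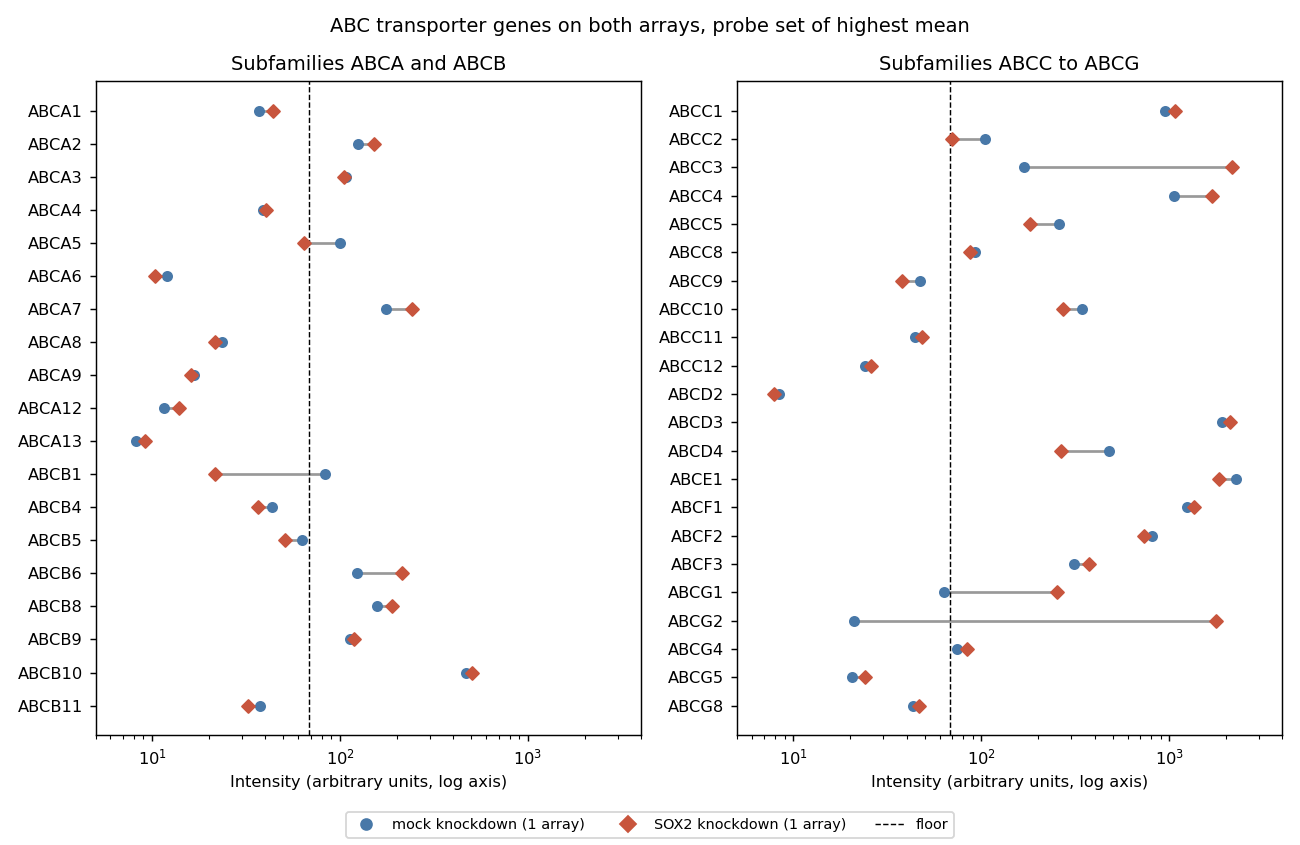
Intensity of each of the 41 ABC genes on the mock knockdown array (circles) and the SOX2 knockdown array (diamonds), on a log axis, at the probe set of highest mean; the dashed line is the floor of 68.5. ABCG2, ABCC3 and ABCG1 show the long gaps to the right, from 21.0 to 1765, 168 to 2156 and 63.4 to 253, and ABCB1 a gap to the left, from 82.9 to 21.5.

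The ABCG subfamily held the member with the largest difference, also against the floor. ABCG2, a pump of the apical membrane that exports urate, porphyrins and many anticancer drugs and that gives stem-like cells their dye efflux, went from 21.0 in the mock culture to 1765 in the knockdown culture. It lay under the floor in the mock culture and well above it in the knockdown culture, and was at least 25.8-fold higher. On the log2 scale this bound is 4.69, beside 6.39 as deposited. A single probe set, 209735_at, represents ABCG2, so no other one could be set beside it.

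ABCG1, which loads cholesterol from cells onto lipoprotein particles, went from 63.4 to 253 at 211113_s_at. Because the mock value lay just under the floor, ABCG1 was at least 3.70-fold higher. A further probe set, 204567_s_at, went from 13.3 to 271 and gave a bound of at least 3.96-fold. On the log2 scale these bounds are 1.89 and 1.98, beside 1.9989 and 4.3476 as deposited. Both mock values were replaced by the same floor, so the closeness of the bounds reflects the knockdown values only. Each of these probe sets reached the floor on the SOX2 knockdown array alone, so their shared direction is no separate check. The remaining 2 probe sets stayed under the floor. ABCG4, a sterol exporter known mainly from brain, differed by 0.17, from 74.6 to 84.0. ABCG5 and ABCG8, which pair to return plant sterols and cholesterol from the enterocyte to the gut lumen, reached the floor on neither array, with at most 23.9 and 46.4. Of the 3 ABCG genes at the floor, 2 were at least 2-fold higher, beside 8.44% of all genes. The median was 1.89 with values under the floor raised to it. Both higher genes reached the floor on the knockdown array alone, so the count depends on that filter. With both arrays at the floor only ABCG4 was left, at 0.17.

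Promoter sequence is shown for ABCG2, for ABCB1, the 1 member past 2-fold downward as deposited, and for ABCD4, the 1 member at the floor whose window held a SOX core. The windows are the 250 bases before an annotated start in RefSeq, build GRCh38.p14, all on the minus strand and printed 5′ to 3′. Capitals mark the SOX core (ACAAT, or ATTGT on the other strand), the GC box bound by SP1 (GGGCGG or CCGCCC) and the core bound by the aryl hydrocarbon receptor AHR (GCGTG or CACGC). Where a gene has several starts, the window with the most such matches is shown, and where windows tie, as 2 of ABCG2 do, the one farthest upstream.
ABCG2, chr4:88158910-88159159: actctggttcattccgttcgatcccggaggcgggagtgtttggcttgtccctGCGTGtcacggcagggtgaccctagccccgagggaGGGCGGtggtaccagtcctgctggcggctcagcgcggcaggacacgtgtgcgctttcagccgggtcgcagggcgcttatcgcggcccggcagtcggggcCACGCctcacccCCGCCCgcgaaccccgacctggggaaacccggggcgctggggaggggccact
ABCB1, chr7:87600885-87601134: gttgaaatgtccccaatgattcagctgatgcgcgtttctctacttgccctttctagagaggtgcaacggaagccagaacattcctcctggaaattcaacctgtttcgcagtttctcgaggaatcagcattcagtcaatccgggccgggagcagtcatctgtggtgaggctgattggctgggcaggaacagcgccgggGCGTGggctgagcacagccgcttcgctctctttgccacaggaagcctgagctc
ABCD4, chr14:74302935-74303184: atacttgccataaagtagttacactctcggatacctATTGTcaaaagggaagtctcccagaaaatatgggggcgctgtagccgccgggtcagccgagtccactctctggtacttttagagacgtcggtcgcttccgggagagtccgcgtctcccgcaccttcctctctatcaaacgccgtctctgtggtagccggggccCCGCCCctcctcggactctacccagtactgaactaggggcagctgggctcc

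The ABCG2 window, 1 of 5 listed for the gene, held 2 GC boxes, which began 163 and 52 bases before the start, and 2 AHR cores, at 198 and 64 bases. It had 71.2% G or C and 27 CpG dinucleotides. The ABCB1 window, 1 of 2, had 55.6% G or C, 12 CpG dinucleotides and 1 AHR core 53 bases before the start. The ABCD4 window held a SOX core beginning 214 bases before the start and a GC box at 51 bases. Of the 41 members, 33 matched the table, with 49 windows; ABCC3 and ABCG1 did not. The SOX core lay in 3 member windows, 6.12%, beside 24.6% of all 35116 windows; the other 2 belong to ABCA9 and ABCC11, both under the floor. The GC box lay in 51.0% of member windows and 42.6% of all, and the AHR core in 42.9% and 32.2%. Member windows had a median of 61.6% G or C and all windows 58.0%, and the part of base composition in these shares was not tested. A match describes the letters and is not a measured site.

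In the ABCC subfamily, 1 of 7 genes at the floor differed by 2-fold or more. This was ABCC3, an exporter of the basolateral membrane that carries bile acids and glucuronides, which went from 168 to 2156 at 208161_s_at. It was above the floor on both arrays and 12.8-fold higher in the knockdown culture. A further probe set, 209641_s_at, went from 125 to 698, which is 5.57-fold. The other 3 probe sets of ABCC3 were higher by far less, with differences of 0.26 at 242553_at, 0.43 at 230682_x_at and 0.60 at 239217_x_at. All 5 probe sets thus lay above 0, and the size depended on the probe set.

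ABCC4, which exports cyclic nucleotides, prostaglandins and nucleoside drugs, went from 1060 to 1696 at 203196_at, a difference of 0.68. Its other probe sets at the floor went the other way: 1554918_a_at from 181 to 121 and 1555039_a_at from 79.2 to 54.9, with differences of -0.58 and, against the floor, -0.21. No direction for ABCC4 as a whole follows from them. ABCC2, an apical exporter of bilirubin and drug conjugates, went from 104 to 69.4, a difference of -0.59 that ended close to the floor. ABCC5, another exporter of cyclic nucleotides, was lower at all 3 of its probe sets: by -0.52 at 209380_s_at, from 260 to 182, by -0.16 at 1558460_at, and by -1.13 or lower at 226363_at, from 150 to 62.6. ABCC2 was the member just inside the naming limit of 1.5-fold and ABCC5, at 1.43-fold, the one just outside.

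ABCC1, the broad exporter of glutathione conjugates, went from 947 to 1074, and its differences of 0.18 and 0.03 were small at both probe sets. ABCC10, an exporter of taxanes, differed by -0.34, and ABCC8, the sulfonylurea receptor of potassium channels, by -0.10, at 92.8 and 86.6. The related channel subunit ABCC9 and the exporters ABCC11 and ABCC12 stayed under the floor. The median of the 7 ABCC genes was -0.10, with 3 above 0 and 4 below.

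**Figure D2:**
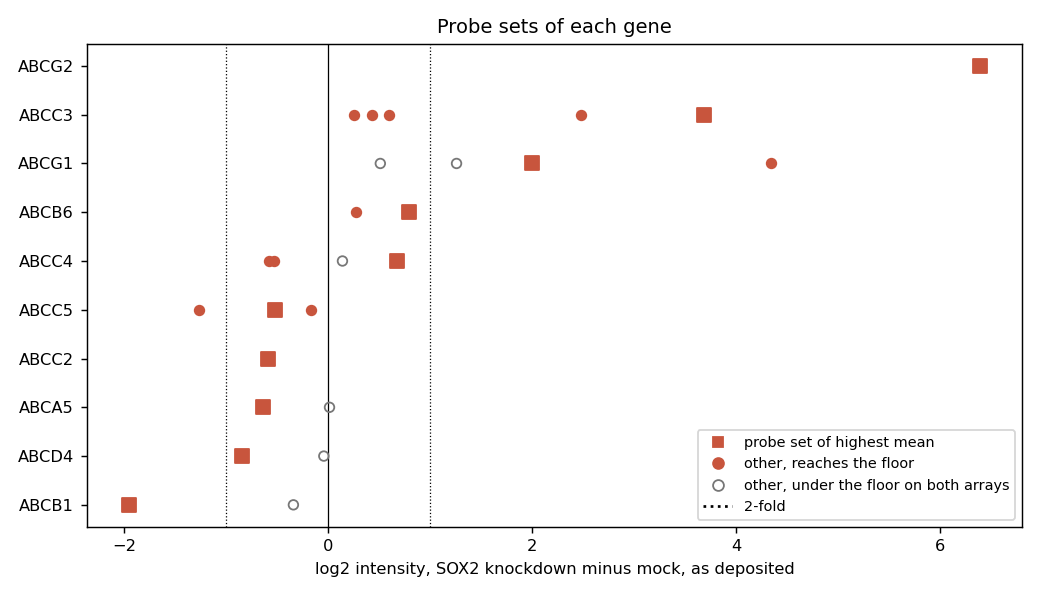
Log2 difference of every probe set of the 9 ABC genes that differed by at least 1.5-fold, and of ABCC5; squares mark the probe set of highest mean, filled circles others that reach the floor, open circles those under it on both arrays, and dotted lines 2-fold. The probe sets of ABCC3 spread from 0.26 to 3.68, and those of ABCC4 lie on both sides of 0.

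In the ABCB subfamily, ABCB1, the classical multidrug pump also called P-glycoprotein, was lower in the knockdown culture. Its probe set 209993_at went from 82.9 to 21.5, a difference of -1.95 as deposited. The mock value stood only a little above the floor, so the bound is small: ABCB1 was at least 1.21-fold lower. Its other probe set, 243951_at, stayed under the floor. A probe set shared by ABCB4 and ABCB1, 209994_s_at, went from 102 to 35.4, a difference of -0.58 or lower against the floor; it cannot be assigned to either gene. The other probe sets of ABCB4, which moves phosphatidylcholine into bile, and those of the bile salt pump ABCB11 lay under the floor, as did the 4 of ABCB5.

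ABCB6, a porphyrin transporter, went from 123 to 213 at 203192_at, a difference of 0.80, and from 93.8 to 114 at 203191_at, a difference of 0.28. It was higher at both. The mitochondrial members ABCB8 and ABCB10 differed by 0.26, from 157 to 189, and by 0.10, from 470 to 502. A further probe set of ABCB8 had the same value on both arrays. ABCB9, a peptide transporter of lysosomes, differed by 0.06. Of the 5 ABCB genes at the floor, 4 lay above 0, and the median was 0.10.

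Among ABCA genes, 4 of 11 reached the floor and none differed by 2-fold, with a median of 0.12. ABCA5, a lysosomal lipid transporter, was lower, from 100 to 64.5, which ended under the floor and gives a difference of -0.55 or lower. ABCA7, a lipid transporter related to ABCA1, went from 175 to 240, a difference of 0.46. ABCA2 went from 124 to 151, a difference of 0.28, but a further probe set differed by -0.0090. ABCA3, which fills surfactant bodies in lung, went from 108 to 105. ABCA1, which starts cholesterol efflux to apolipoprotein A-I, stayed under the floor at all 4 of its probe sets, with at most 44.0 on either array, so nothing can be said of its direction. The others under the floor were ABCA4, ABCA6, ABCA8, ABCA9, ABCA12 and ABCA13.

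In the ABCD subfamily, ABCD4, which helps release cobalamin from lysosomes, was lower, from 477 to 265, a difference of -0.85. Its other probe set stayed under the floor. ABCD3, an importer of bile acid precursors and fatty acids into peroxisomes, stood at 1914 and 2115, a difference of 0.14. ABCD2 lay under the floor.

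The 4 members that work at the ribosome differed little. ABCE1, which splits ribosomes after translation ends, went from 2255 to 1838, a difference of -0.30, and its other probe set differed by -0.19. ABCF1, which acts with initiation factor eIF2, went from 1235 to 1350. ABCF2 stood at 804 and 733, and its 5 probe sets differed by between -0.13 and 0.09. ABCF3 went from 312 to 374, a difference of 0.26. All 4 were above the floor on both arrays and within 1.5-fold, between -0.30 and 0.26.

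**Figure D3:**
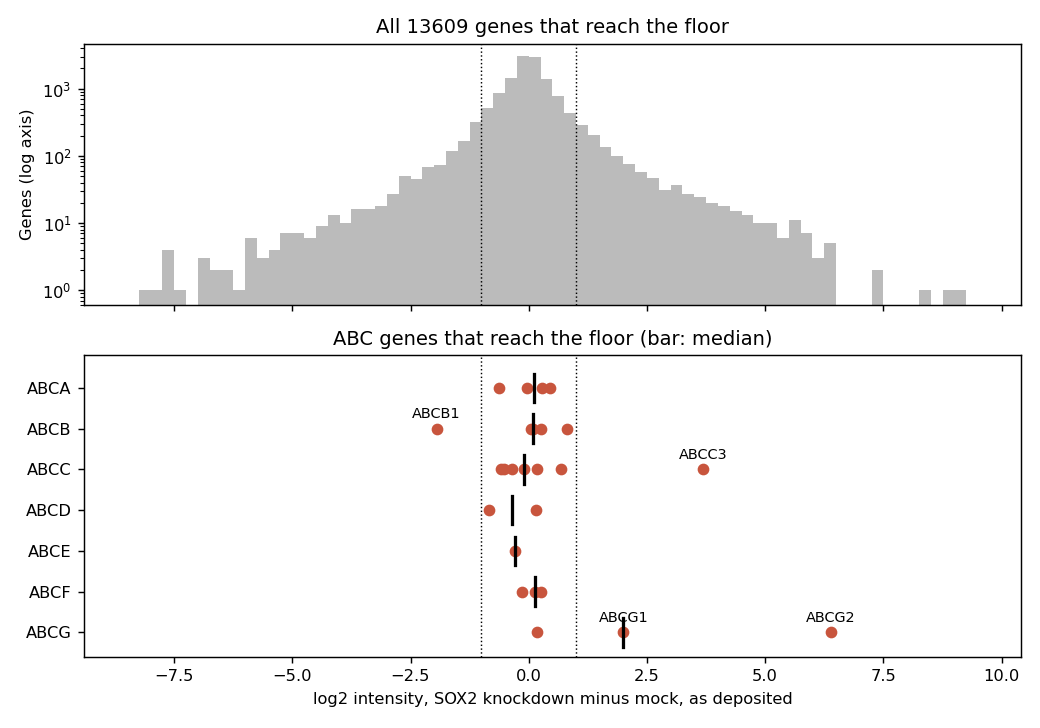
Log2 differences of all 13609 genes that reach the floor (upper panel, counts on a log axis) and of the 25 ABC genes that do (lower panel, by subfamily, with bars at the medians); dotted lines mark 2-fold. Most ABC genes lie between the lines; ABCG2 at 6.39, ABCC3 at 3.68, ABCG1 at 2.0 and ABCB1 at -1.95, all as deposited, lie outside them.

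Probe sets of 1 gene gave the only measure of spread in this pair of arrays. Of the 14 ABC genes with several probe sets at the floor, 9 had all of them on the same side of 0 and 4 on both sides: ABCA2, ABCC4, ABCD3 and ABCF2. ABCB8 had 1 above 0 and 1 at 0. In 9 of the 14 they lay within 0.5 of each other. In 4, ABCC3, ABCC4, ABCC5 and ABCG1, they spanned more than 1 as deposited, and ABCC3 and ABCG1 are among the genes at least 2-fold higher. Across all genes the SD between probe sets of a gene was 0.49 on the log2 scale. The 16 ABC genes at the floor that stayed within 1.5-fold differed by less than this SD, ABCC5 excepted. This spread holds no variation between cultures, which all probe sets share.

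Of the ABC proteins whose symbols do not start with ABC, CFTR, the chloride channel of intestinal and airway epithelium, went from 45.2 to 338. It was at least 4.93-fold higher at 205043_at, and its other 5 probe sets stayed under the floor. TAP1 and TAP2 together carry peptides into the endoplasmic reticulum for antigen presentation. TAP2 went from 316 to 604, a difference of 0.93, with its other probe sets at the floor at 0.32 and more, and TAP1 from 404 to 439, a difference of 0.12.

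Transcription factors known to act on ABC genes were often higher: 8 of 21 at the floor by at least 2-fold, against none that was lower by as much, beside 8.44% and 7.29% of all genes. Their median difference was 0.40. Without suffixed probe sets 5 were higher by 2-fold, and the median ran from 0.28 with the least different probe set to 0.85 with the mean of probe sets. EPAS1, a hypoxia-inducible factor, went from 41.0 to 642 and was at least 9.37-fold higher, and FOXO1, a forkhead factor under insulin control, went from 94.9 to 434. The oxysterol receptor NR1H3, an activator of ABCA1 and ABCG1, went from 191 to 552. PPARG, which is known to act on ABCG2, went from 411 to 1623, and AHR, another known activator of ABCG2, from 300 to 706. RXRA, the dimer partner of NR1H3 and PPARG, went from 386 to 1352 at its probe set of highest mean, with a difference of 0.16 at the other. PPARA and NR0B2 were the remaining 2 at least 2-fold higher. NFE2L2 differed by 0.34, ARNT by -0.16 and ESR1 by -0.19, and HIF1A, at -0.51, had the lowest difference. Of the 21 genes, 15 lay above 0 and 6 below. The part of any of these factors in the differences of ABC genes was not tested.

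Genes of the oxysterol response and of cholesterol efflux beside ABCA1 and ABCG1 lay on both sides of 0. Of 15 at the floor, 3 were lower and 1 higher by 2-fold or more, beside 7.29% and 8.44% of all genes, and their median was -0.17. The lower count was 1 where both arrays had to reach the floor. MYLIP, the ligase that degrades the LDL receptor, went from 127 to 552, a difference of 2.12, although its probe sets ranged from 0.30 to 2.14. SOAT1, which esterifies cholesterol, went from 264 to 40.8 and was at least 3.86-fold lower. The receptor VLDLR went from 223 to 43.6, at least 3.25-fold lower, and the third was the apolipoprotein APOC1 at -1.04. SREBF1 and SCD, known targets of the same receptors, differed by 0.25 and 0.29, but other probe sets of them went down to -0.07 and -0.22.

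Partner proteins of ABC transporters had a median of 0.33 over 12 genes, of which 2 were higher and none lower by 2-fold or more, beside 8.44% and 7.29% of all genes. The higher count was 1 with the mean, the median or the least different of the probe sets. TAPBP, the chaperone that holds class I molecules at the TAP pump, differed by 1.49, with other probe sets down to 0.15. NHERF1, a scaffold of CFTR and apical pumps, went from 238 to 613, a difference of 1.36. PEX3, which with PEX19 brings ABCD proteins to peroxisomes, was lower, by -0.95, and RDX, which anchors ABCC2 in the membrane, differed by -0.60, with other probe sets up to 0.01. KCNJ11, the channel that ABCC8 regulates, differed by -0.19.

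Partners of the ribosomal members had a median of -0.35 over 9 genes, with 1 past 2-fold in each direction, beside 8.44% and 7.29% of all genes. The median was 0.12 with the least different probe set of each gene and without suffixed probe sets, so its sign is not settled. PELO, which works with ABCE1 on stalled ribosomes, went from 450 to 929, a difference of 1.05, and its companion HBS1L went from 1702 to 990, a difference of -0.78. The eIF2 subunit EIF2S3 went from 5085 to 2481, a difference of -1.04. Of 13 genes of haem and iron-sulfur metabolism, ALAD was past 2-fold upward, at 1.06, and UROD downward, at -1.27, beside 8.44% and 7.29% of all genes. The median was -0.20. It was 0.11 without suffixed probe sets. HMOX1, which breaks haem down, differed by 0.84 and the iron-sulfur carrier GLRX5 by -0.66; a further probe set of ALAD had the same value on both arrays.

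Uptake and other carriers of drugs and bile acids had a median of 0.06 over 11 genes, with 2 past 2-fold upward as deposited and none downward, beside 8.44% and 7.29% of all genes. With values under the floor raised to it, 1 gene was left. This was MVP, the major vault protein, which is no carrier but has been tied to drug resistance; it went from 334 to 1063, a difference of 1.67. SLC22A4, an ergothioneine carrier, was higher by 0.34 or more against the floor, from 40.6 to 86.8. A further 11 genes of this list, among them SLC51A and SLC51B, which export bile acids from enterocytes, lay under the floor. Of 17 genes of glutathione synthesis and conjugation, which supply the substrates of ABCC pumps, 3 passed 2-fold upward and none downward, beside 8.44% and 7.29% of all genes, and the median was 0.09. SULT2B1, a sulfotransferase of sterols, went from 74.8 to 624, a difference of 3.06, and MGST2, a microsomal glutathione transferase, from 378 to 1398, a difference of 1.89. GCLM, a subunit of the enzyme that starts glutathione synthesis, was the third, at 1.02, and GSS, which completes it, differed by -0.64.

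**Figure D4:**
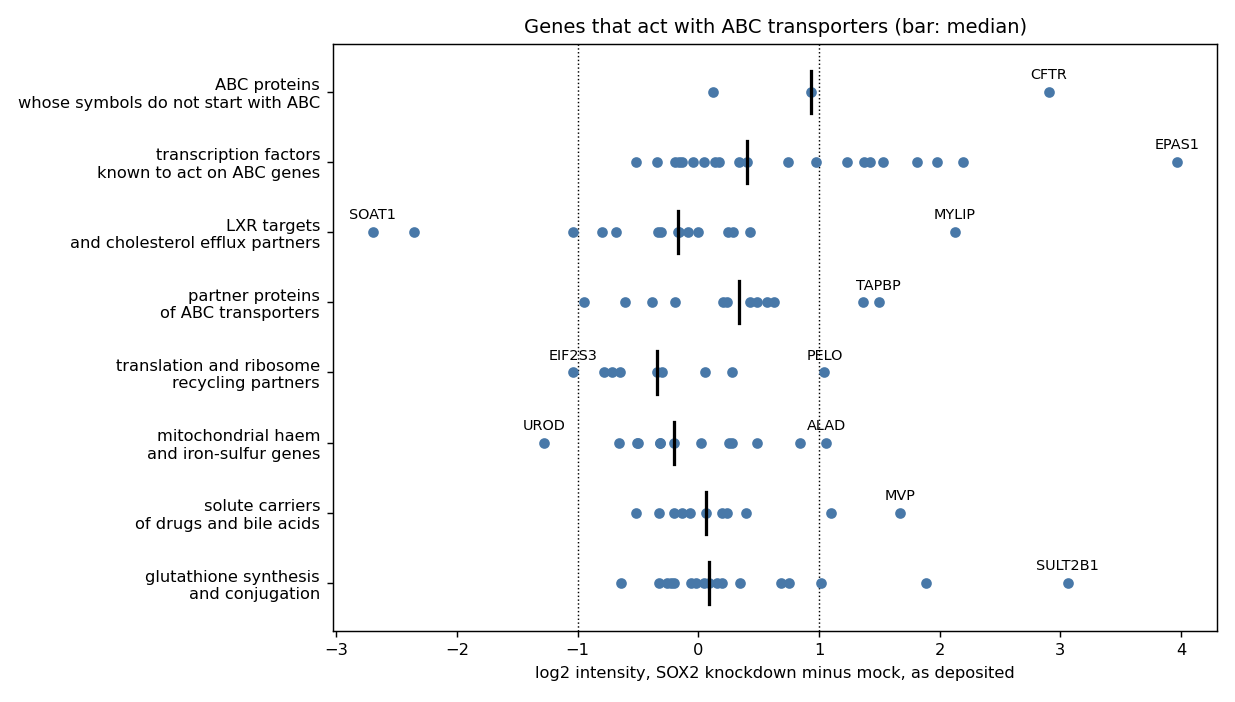
Log2 differences of the genes at the floor in each of 8 lists of genes that act with ABC transporters; points are genes, bars medians and dotted lines 2-fold. The transcription factor list has 8 genes to the right of 2-fold and none to the left, while the LXR target list has 1 and 3.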

How the data were processed

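RNA extracted with Trizol was labelled with biotin and hybridised to 1 array per group, per the labels' protocols. The authors made the deposited intensity values with RMA, per the submitters' processing notes, and the values themselves show a linear scale. For the version of RMA, nothing is given in the sources used here. This method equalises the distributions of the arrays and gives no detection call. A platform annotation named 1 symbol for 41091 of 54613 probe sets other than 62 controls; RefSeq (GRCh38.p14) gave biotypes, gene order and promoters. Log2 was taken with no pseudocount. The floor is the median of all values. Without replicates genes were counted past a limit of 2-fold and not tested. Named genes are ABC genes at the floor with at least 1.5-fold difference, the probe set of highest mean in each subfamily, and up to 2 genes per list and direction; further ones were named after their values were seen. The members, lists and limits were chosen with earlier results of these data known. Counting was tested on simulated data. Alternatives covered the floor, the normalization, the choice of probe set, a pseudocount and the limit. Python 3.11.15, numpy 2.4.6, pandas 2.3.3 and matplotlib 3.10.9 were used.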

Additional observations from a re-analysis of the deposited data

How the results depend on the processing

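No paired analysis was possible because each group holds 1 array, and for the same reason no replicate could be left out. Over the alternatives ABCG2 ran from 4.69 to 6.4, ABCG1 from 1.58 to 3.17 and ABCC3 from 0.26 to 3.70, the lowest of these with the probe set of smallest difference. ABCC4 ran from -0.53 to 0.70 and lay above 0 in 10 of 13 alternatives; the other 8 named ABC genes kept their direction in each alternative that gave a value. The 3 higher genes became 1 of 21, beside 6.68% of all genes, where both arrays had to reach the floor. They became 5 of 25 at 1.5-fold, beside 15.0%. With the median or the least different of the probe sets they were 2 of 25, beside 7.64% and 6.09%. Without probe sets of suffix _s, _x or _a, which can match several transcripts, they became 1 of 17, beside 8.54%. ABCC3 is then read at 242553_at and ABCG1 is under the floor. The 1 lower gene became 0 with the floor at the 75th percentile and with both arrays at the floor, beside 9.16% and 5.58% of all genes. It also became 0 with values raised to the floor and with the mean of all probe sets, beside 6.64% and 6.09%. The lower count was 2 of 17 without suffixed probe sets, beside 7.35%, and 4 of 25 at 1.5-fold, beside 14.8%. The family median was -0.0090 when each gene took its least different probe set and 0.0000 without suffixed probe sets. At the 75th percentile floor the medians were 0.46 for ABCA (1 gene left), 0.45 for ABCB, 0.18 for ABCC and 4.19 for ABCG. Smaller shifts also changed signs. The ABCB median was -0.08 at a 25th percentile floor and with no floor. For ABCA it was -0.02 with the least different probe set and -0.04 without suffixed probe sets, and for ABCC 0.08 without them. The signs of these 3 medians are thus not settled. The ABCD median was 0.14 without suffixed probe sets. For ABCG it was 1.08 at a 25th percentile floor, 0.17 with both arrays at it (1 gene left), 0.21 with no floor, 3.17 with the median of probe sets, 3.28 without suffixed ones and 1.58 with a pseudocount of 32. For the lists of related genes, counts and medians moved in 53 cases and stayed in 291; without suffixed probe sets the median of drug carriers was -0.13. Keeping the pseudogene ABCC13, an alternative chosen after seeing the data, left the counts at 3 and 1. Some settings leave fewer genes, and the cause of these shifts was not tested.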

Other observations

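The genes next to an ABC gene on its chromosome are described mainly for the largest differences. These cases were picked for their size, so a median of neighbours far from them largely follows from that choice. Whether neighbouring genes moved together was not tested. For ABCG2, the 10 nearest genes at the floor, 5 on each side in the RefSeq order, had a median difference of 0.31 and reached at most 2.46, at TIGD2. For ABCC3 their median was 0.06, with at most 1.54, at ACSF2. For CFTR it was 0.18, with at most 1.73, at FAM3C. ABCG1 has the trefoil genes beside it, which went far in opposite directions, with TFF3 at -3.33 and TFF1 at 2.69, and the 10 neighbours had a median of 0.0012. At least 2-fold higher were 3 of these 10, and 2 of 10 each for ABCG2, ABCC3 and CFTR, beside 8.44% of all genes. At least 2-fold lower was 1 neighbour each for ABCG1 and CFTR, beside 7.29%, and none for ABCG2 or ABCC3. ABCB1 was lower as deposited while its neighbours were on balance higher, with a median of 0.75. Of these, 3 of 10 were at least 2-fold higher, beside 8.44% of all genes, up to 4.04 at STEAP4, a metalloreductase. ABCC5 and ABCF3, near each other on chromosome 3, differed by -0.52 and 0.26.

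The pseudogene ABCA11P was at the floor on both arrays, at 127 and 116, with a difference of -0.14. ABCA17P, ABCC6P1 and the 4 probe sets of ABCC13 stayed under it. At ABCA1, whose probe sets all lay under the floor, 203505_at went from 16.2 to 39.5 and 203504_s_at from 15.0 to 25.4. Its other probe sets differed by 0.25 at 216066_at and 0.03 at 1570279_at. No direction was read from values under the floor.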
